A study of Mus musculus with 4 samples.

Results

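Semaphorins, Slits and netrins are secreted or membrane-bound guidance cues, and plexins, neuropilins, Robos, Dcc, neogenin and Unc5 proteins are their receptors. The set described here was drawn from gene families, with earlier results of these data known. It does not hold whole families, as the plexin Plxnb3, the Robo Robo3 and the netrin Ntn5 were listed as partners instead. It lists 45 genes, of which 44 had an identifier among the 52636 in the count files, namely 25 ligands and 19 receptors. The netrin Ntn3 was not matched, so its expression is not analysed here. RNA was sequenced from mouse kidney cells sorted by fluorescence, as 2 libraries labelled control and 2 labelled Brg1-cKO, each from 3000 cells. Brg1 is an ATPase of SWI/SNF chromatin remodelling complexes, encoded by Smarca4, and cKO usually means a conditional knockout. The deleting allele, the marker used for sorting and the age of the kidneys are not given in the sources used here. The labels do not tie the 2 libraries of a group to different animals, so p-values measure only the spread between these libraries.

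In background knowledge, class 3 semaphorins are secreted and mostly act through neuropilins paired with A-type plexins, while Sema3e binds plexin D1 directly. Slit2 from the nephric duct and Robo2 on the nephrogenic mesenchyme keep the ureteric bud from forming at extra sites, and Robo2 is also a podocyte protein. Netrins bind Dcc, neogenin and Unc5 receptors, and Robo4 is a receptor of endothelium.

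Total gene counts were 35411905 and 37999342 in control and 14645665 and 10922272 in Brg1-cKO. Uniquely aligned reads outside counted genes made up 15.4% to 16.5% in control and 49.5% to 57.2% in Brg1-cKO. Reads that did not align made up 6.32% and 6.69% of all reads in control and 21.3% and 25.5% in Brg1-cKO. The coefficient of biological variation came to 0.173 in control and 1.11 in Brg1-cKO. Smarca4, which checks the labels only in part because the count covers the whole gene, was at 894 and 933 CPM (counts scaled to library size) in control and at 757 and 688 CPM in Brg1-cKO. Xist was at 243 and 216 CPM in control and at 832 and 1199.5 CPM in Brg1-cKO, and the Y-linked Ddx3y at 75.6 and 78.4 against 1.04 and 3.25 CPM, so sex and genotype cannot be told apart here. In these sorted samples fewer cells of a type and less RNA per cell cannot be told apart either.

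The start regions of 4 guidance genes are shown because the genes stood far apart in the results that follow. Sema3a and Sema3e lie on 1 stretch of chromosome 5 and differed from control in opposite directions, and Robo4 and Slit3 had the largest differences among the 3 Robos and 3 Slits of the set. The windows come from RefSeq on GRCm38.p6, a patch release of the mm10 assembly, and run from 250 bases before to 50 bases after the annotated start, all on the plus strand. They are Sema3a at chr5:13396534-13396833, Sema3e at chr5:14025026-14025325, Robo4 at chr9:37401722-37402021 and Slit3 at chr11:35121206-35121505. Capitals mark matches, on either strand and with overlaps counted, to GGGCGG (the GC box bound by Sp factors), GGAAGT (an ETS core), TCAGGTT (a core of sites of the homeodomain factor Six2) or TATAAA (the TATA box).
Sema3a: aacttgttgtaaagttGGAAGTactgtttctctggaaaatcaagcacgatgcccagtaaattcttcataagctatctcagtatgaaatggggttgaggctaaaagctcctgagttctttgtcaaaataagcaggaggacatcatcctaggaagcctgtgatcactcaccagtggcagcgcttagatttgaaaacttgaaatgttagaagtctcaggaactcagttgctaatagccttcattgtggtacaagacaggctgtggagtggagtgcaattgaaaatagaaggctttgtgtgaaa
Sema3e: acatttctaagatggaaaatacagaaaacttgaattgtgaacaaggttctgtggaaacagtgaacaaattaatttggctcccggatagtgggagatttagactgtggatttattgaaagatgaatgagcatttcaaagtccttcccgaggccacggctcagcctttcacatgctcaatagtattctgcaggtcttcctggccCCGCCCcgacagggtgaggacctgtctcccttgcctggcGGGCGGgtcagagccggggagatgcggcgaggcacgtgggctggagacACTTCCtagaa
Robo4: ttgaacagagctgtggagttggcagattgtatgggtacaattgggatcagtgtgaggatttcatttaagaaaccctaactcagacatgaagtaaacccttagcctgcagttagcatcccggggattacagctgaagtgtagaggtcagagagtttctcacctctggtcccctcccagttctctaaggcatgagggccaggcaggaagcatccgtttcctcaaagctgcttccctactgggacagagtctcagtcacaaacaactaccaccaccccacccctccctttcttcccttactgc
Slit3: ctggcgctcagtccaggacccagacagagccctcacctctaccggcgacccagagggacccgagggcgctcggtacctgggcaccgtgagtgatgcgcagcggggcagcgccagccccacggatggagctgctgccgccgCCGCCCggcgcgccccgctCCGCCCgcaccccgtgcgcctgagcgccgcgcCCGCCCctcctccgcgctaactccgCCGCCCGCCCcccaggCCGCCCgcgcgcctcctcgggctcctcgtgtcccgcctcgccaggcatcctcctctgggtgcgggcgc

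The Sema3a window held 2 CpG dinucleotides and 1 ETS core, and its RefSeq start lies inside the longer gene that GENCODE gives. Sema3e held 11 CpG, 2 GC boxes and 1 ETS core. Robo4 held 2 CpG and none of the motifs, while Slit3 held 41 CpG and 6 GC boxes. The median over all 32851 windows of this length was 7 CpG, and over the 49 windows of the 36 guidance genes with a RefSeq window, Ntn3 included, it was 18. GC boxes were found in 69.4% of the guidance gene windows and in 35.7% of all windows, ETS cores in 18.4% and 23.8%, TCAGGTT in 4.08% and 4.07%, and TATA boxes in 2.04% and 13.6%. These matches describe letters in the windows only.

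In control cells, the most abundant guidance transcripts per kb of exon were those of receptors. Plxnd1, the plexin that binds Sema3e, was at 72.7 CPM per kb and Plxnb2, a receptor of class 4 semaphorins, at 66.9 CPM per kb. Sema3f, a secreted ligand of neuropilin 2, followed at 42.7 CPM per kb and was the highest ligand. Sema4c was at 31.2, neogenin (Neo1) at 27.6 and Ntn1 at 24.7 CPM per kb. In Brg1-cKO, Plxnb2 was at 64.1, Plxnd1 at 53.2 and Sema3f at 49.6 CPM per kb. Such orders hold only for the union of exons as gene length. That union is 7720 bases for Plxnb2, 7301 for Plxnd1 and 9785 for Nrp1. Their longest annotated transcripts have 6497, 6907 and 3645 bases, so the order of these genes depends on the length used. Netrin 1 went from the rank of 6 to 19 among the 44 genes, and Slit3 from 14 to 7, as levels per kb of group means. Summed over the 25 ligands, the level was 211 and 209 CPM per kb in control and 195 and 209.6 in Brg1-cKO. Summed over the 19 receptors it was 322 in both controls, and 314 and 319 in Brg1-cKO. Ligands thus gave 39.5% and 39.4% of the summed level in control and 38.3% and 39.6% in Brg1-cKO.

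**Figure D1:**
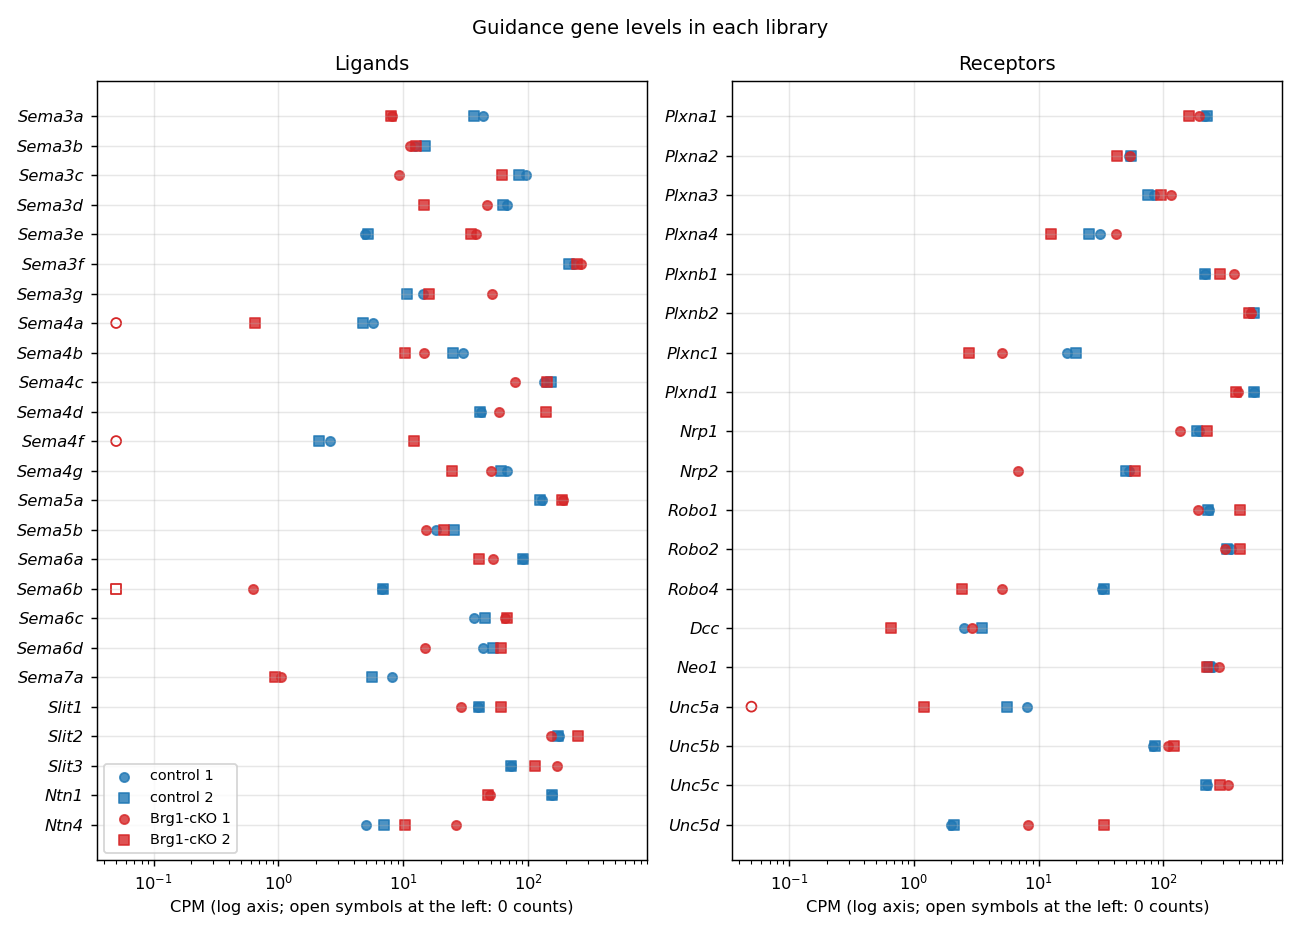
CPM of the 44 guidance genes in each library on a log axis, ligands on the left and receptors on the right, with circles for replicate 1 and squares for replicate 2 (blue control, red Brg1-cKO). Open symbols at the left edge stand for 0 counts. The controls lie close together, within 1.5-fold for each of the 35 genes at 10 CPM or more in control, while the Brg1-cKO libraries of several genes lie far apart.

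The comparison asks how expression in the sorted cells differed where Brg1 was targeted. All 44 guidance genes were tested and 0 had an edgeR adjusted p under 0.05. The background was the same, 0% of 18172 genes, and the smallest adjusted p was 0.166 in both. At an unadjusted p under 0.05, 7 guidance genes (15.9%) stood higher in Brg1-cKO, against 5.44% of all genes tested. Those were the ligands Sema3e, Sema5a, Sema6c and Slit3 and the receptors Plxnb1, Unc5c and Unc5d. A further 6 (13.6%) stood lower, near the 12.9% of all genes, namely the ligands Sema3a, Sema6a and Ntn1 and the receptors Plxnc1, Plxnd1 and Robo4. Among genes at 10 CPM or more in either group, the shares over all genes were 7.66% higher and 5.22% lower. All of the guidance genes just named were at that level. The lower share of guidance genes there was thus at least 13.6%, above the 5.22%. With either control library left out, 0 guidance genes stood higher and 1 lower at this p.

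Both Brg1-cKO libraries lay above both controls for 13 guidance genes (29.5%), against 17.5% of all genes tested. They lay below both controls for 15 (34.1%), against 34.5% of all genes. The other 16 overlapped. DESeq2 called 13 guidance genes at an adjusted p under 0.05, 6 higher and 7 lower. It called 11.1% of the 18337 genes to which it gave an adjusted p. Of these, 12 are among the 13 named above, and Sema7a takes the place of Sema6c. Limma-voom called 0 guidance genes and 1.8% of all genes. These tools used the same counts, and their calls are no separate support.

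The median log2 fold change was -0.27 over 25 ligands, with 11 above 0, and -0.06 over 19 receptors, with 8 above 0. Over all genes tested it was -0.06, with 47.0% of them above 0. The order of ligands and receptors rests on single libraries: the medians were -0.0407 and -0.119 without the first Brg1-cKO library, -0.0809 and -0.129 without the second control, and -0.504 and -0.0755 without the second Brg1-cKO library. By family, the summed level per kb of the 3 Slits was 25.6 CPM in each control and 39.3 and 39.0 CPM in Brg1-cKO. The 4 Unc5 receptors summed to 27.0 and 26.8 CPM per kb in control against 35.7 and 38.1 in Brg1-cKO. The 2 netrins summed to 25.9 and 26.7 against 14.9 and 10.4 CPM per kb. Single members departed from these sums: Ntn4 stood higher and Unc5a lower in Brg1-cKO, while Slit1 and Slit2 overlapped between groups. For these 3 families the libraries of the groups did not overlap. The 8 plexins (202 and 206 against 200.3 and 178 CPM per kb) also did not overlap, by a margin smaller than the gap between the Brg1-cKO libraries, while the 7 class 3 semaphorins (75.3 and 68.7 against 76.6 and 68.8) and the 3 Robos (40.6 and 39.3 against 30.8 and 49.6) did.

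**Figure D2:**
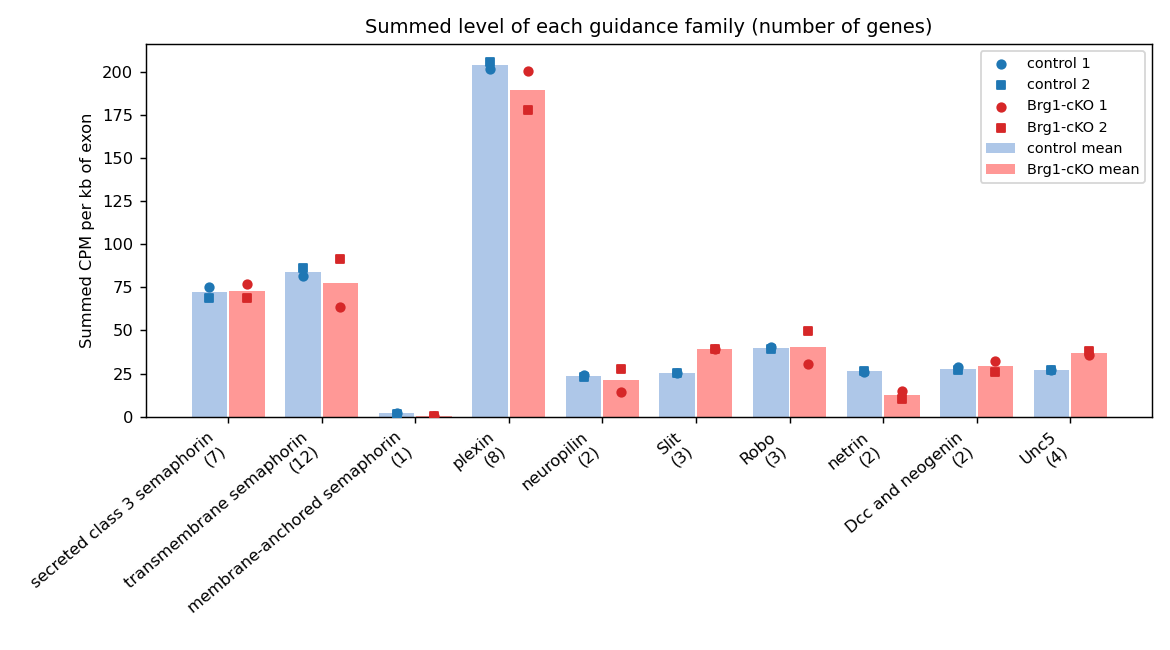
Summed CPM per kb of exon for each guidance family (bars, group means; points, libraries; the number of genes in brackets). The Slit and Unc5 sums lie above, and the netrin sum below, both controls in each Brg1-cKO library, and Sema7a alone makes up the membrane-anchored class.

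Among the secreted class 3 semaphorins, Sema3e and Sema3a stood furthest from control and in opposite directions. Sema3e, a ligand that repels plexin D1-bearing vessels, was at 4.92 and 5.24 CPM in control and at 38.1 and 34.7 CPM in Brg1-cKO (log2 fold change 2.84, SE 0.44, adjusted p = 0.166 by edgeR). Sema3a, a neuropilin 1 ligand that podocytes make, was at 43.5 and 36.7 CPM in control and at 8.14 and 7.90 CPM in Brg1-cKO (log2 fold change -2.32, SE 0.39, adjusted p = 0.166 by edgeR). For both genes the libraries of a group lay close together and far from the other group. Over the alternatives the adjusted p ran from 1.97e-13 with DESeq2 to nearly 1 without a control library for Sema3e, and from 7.65e-08 to nearly 1 for Sema3a, with the same direction in each.

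Both genes lie on the plus strand of chromosome 5 (mm10), Sema3a from 13125414 to 13602565 and Sema3e from 14025276 to 14256689. Sema3d lies before them from 12383385 to 12588948 and Sema3c beyond them from 17574281 to 17730268. Sema3d was at 67.3 and 63.2 CPM in control and at 46.6 and 14.8 CPM in Brg1-cKO. Sema3c was at 96.4 and 84.3 CPM against 9.25 and 62.3 CPM. Both were below control in each Brg1-cKO library, but these libraries differed by 3.15-fold and 6.73-fold, and the log2 fold changes of -1.09 (SE 0.63) and -1.34 (SE 0.96) were not past the threshold.

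The remaining class 3 members were nearer to control or less even. Sema3f was at 232 and 212 CPM in control and at 267 and 249 CPM in Brg1-cKO, a log2 fold change of 0.22 (SE 0.13). Sema3g, a semaphorin of podocytes and arterial endothelium, was at 14.3 and 10.7 CPM against 51.8 and 16.2 CPM, and only the first Brg1-cKO library stood far above. Sema3b overlapped, at 12.4 and 14.9 CPM against 11.4 and 12.6 CPM.

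Of the transmembrane semaphorins, Sema5a, Sema6a and Sema6c had the smallest p-values. Sema5a, which carries thrombospondin repeats beside its semaphorin domain, was at 130.1 and 124 CPM in control and at 189.9 and 188 CPM in Brg1-cKO (log2 fold change 0.58, SE 0.14, adjusted p = 0.166 by edgeR). Sema6c was at 37.2 and 45.2 against 65.0 and 68.4 CPM (log2 fold change 0.69, SE 0.25, adjusted p = 0.269 by edgeR). Sema6a, a ligand of plexins A2 and A4, was at 91.8 and 91.2 CPM in control against 52.4 and 40.5 CPM (log2 fold change -0.98, SE 0.24, adjusted p = 0.166 by edgeR). The difference of these 3 genes exceeded the gap between libraries of either group.

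Several class 4 members varied more between the Brg1-cKO libraries. Sema4d, the ligand of plexin B1, was at 41.8 and 41.1 CPM in control and at 58.6 and 139.8 CPM in Brg1-cKO (log2 fold change 1.26, SE 0.49). Sema4b was at 29.9 and 25.0 CPM against 14.7 and 10.2 CPM (log2 fold change -1.14, SE 0.47). Sema4g was at 68.2 and 60.8 CPM against 50.4 and 24.5 CPM. None of these overlapped between groups, and none had an unadjusted p under 0.05. Sema4c overlapped, at 134 and 153 against 78.1 and 142 CPM. So did Sema5b, at 18.3 and 25.4 against 15.1 and 21.2 CPM, and Sema6d, at 43.9 and 51.9 against 14.9 and 60.3 CPM.

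The scarcest semaphorins rested on few reads in Brg1-cKO. Sema4a had 207 and 183 counts in control and 0 and 7 in Brg1-cKO, and Sema6b had 242 and 266 against 9 and 0. Sema7a, which is anchored to the membrane by a lipid and binds plexin C1, had 292 and 217 counts in control against 15 and 10. On the CPM scale Sema7a was at 8.12 and 5.60 against 1.04 and 0.93, with a log2 fold change of -2.79 (SE 1.16). Sema4f had 93 and 82 counts in control and 0 and 130 in Brg1-cKO. Scaled to library size, that is 2.59 and 2.12 CPM against 0 and 12.1 CPM, so its Brg1-cKO libraries lay on both sides of control.

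Among semaphorin receptors, Plxnd1 and Plxnb1 differed in opposite directions at high levels. Plxnd1 was at 531 and 529.5 CPM in control and at 395 and 382 CPM in Brg1-cKO (log2 fold change -0.45, SE 0.09, adjusted p = 0.166 by edgeR). Its ligand Sema3e thus stood higher where Plxnd1 stood lower. Plxnb1 was at 216 and 214 CPM against 366 and 282 CPM (log2 fold change 0.59, SE 0.17, adjusted p = 0.194 by edgeR), and its ligand Sema4d was also higher in both Brg1-cKO libraries. Plxnc1, the receptor of Sema7a, was at 16.8 and 20.0 CPM against 5.08 and 2.79 CPM (log2 fold change -2.22, SE 0.75, adjusted p = 0.242 by edgeR).

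The A-type plexins and neuropilins, through which class 3 semaphorins signal, stood closer to control. Plxna1 was at 214 and 225 CPM in control and at 192 and 159.6 CPM in Brg1-cKO, below both controls. Plxna3, which is X-linked, was at 84.0 and 75.5 against 116 and 95.2 CPM, above both. Whether the Xist difference given above has a part in this was not tested. Plxna2 overlapped, at 52.6 and 55.0 against 54.5 and 42.7 CPM, and so did Plxna4, at 30.8 and 25.5 against 41.4 and 12.6 CPM. Plxnb2 was nearly even, at 499.8 and 533 against 505 and 485 CPM, with a log2 fold change of -0.06 (SE 0.09).

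Neuropilin 2 had the widest gap between the Brg1-cKO libraries among receptors with counts in both. Nrp2, the co-receptor of Sema3f, was at 53.4 and 49.9 CPM in control, at 6.89 CPM in the first Brg1-cKO library and at 59.6 CPM in the second. Its ligand Sema3c was likewise low in that first library and nearer to control in the second. Nrp1, a co-receptor of Sema3a and of vascular endothelial growth factor, overlapped, at 193 and 186 against 137 and 224 CPM.

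Of the Slits, Slit3 alone lay above both controls in each Brg1-cKO library. It was at 72.8 and 72.4 CPM in control and at 172 and 115 CPM in Brg1-cKO (log2 fold change 0.98, SE 0.27, adjusted p = 0.174 by edgeR). Slit2, the Slit of the nephric duct, was at 176 and 175 CPM against 153 and 249 CPM, and Slit1 at 39.5 and 40.3 against 28.8 and 60.9 CPM. Both of these lay below control in the first Brg1-cKO library and above it in the second. Slit3 spans 35121224 to 35708507 of chromosome 11 (mm10, plus strand).

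The Slit receptors Robo1 and Robo2 overlapped between groups. Robo2 was at 349 and 325 CPM in control and at 311 and 408 CPM in Brg1-cKO, a log2 fold change of 0.09 (SE 0.17). Robo1 was at 231 and 228 against 189 and 415 CPM (log2 fold change 0.40, SE 0.41). Robo4 was at 32.3 and 33.7 CPM in control and at 5.08 and 2.42 CPM in Brg1-cKO (log2 fold change -3.13, SE 0.63, adjusted p = 0.166 by edgeR). It spans 37401897 to 37415115 of chromosome 9 (mm10, plus strand). Differences between Robo4 and the other Robos were not tested.

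Other endothelial markers were also mostly lower. Of 15 (Robo4 not among them), 13 were below 0 in log2 fold change, 11 lay below both controls (34.5% of all genes tested did), and their summed level was 878 to 885 CPM in control and 441 to 584 CPM in Brg1-cKO. Erg and Sox18 were each at 0 counts in 1 Brg1-cKO library, and Cldn5 was higher in both. Their part in the Robo4 and Plxnd1 differences was not tested.

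Netrin 1 had the smallest p of the set. Ntn1, a secreted netrin made by the renal stroma, was at 154 and 156 CPM in control and at 49.3 and 48.0 CPM in Brg1-cKO (log2 fold change -1.67, SE 0.17, adjusted p = 0.166 by edgeR). Over the alternatives its adjusted p ran from 1.52e-18 with DESeq2 to nearly 1 without a control library, and the log2 fold change from -1.72 to -1.62. Ntn1 spans 68209364 to 68400823 of chromosome 11 (mm10, minus strand). Of 19 other stromal markers, 16 lay below both controls, where 34.5% of all genes tested did, and 1 (Col1a2) lay above both. The summed level of the 19 was 4488 to 4527 CPM in control and 2880.4 to 2972 CPM in Brg1-cKO. Ren1 was at 0 counts in both Brg1-cKO libraries. Their part in the Ntn1 difference was not tested. Ntn4, a netrin of basement membranes, was higher in both Brg1-cKO libraries at a low level, at 4.98 and 6.97 against 26.5 and 10.2 CPM.

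Of the netrin receptors, Unc5c was at 222 and 219 CPM in control and at 329.6 and 283 CPM in Brg1-cKO (log2 fold change 0.47, SE 0.13, adjusted p = 0.179 by edgeR). Unc5b was at 82.7 and 86.5 against 109.7 and 122 CPM (log2 fold change 0.45, SE 0.18). Unc5d was scarce in control, at 1.98 and 2.09 CPM, and was at 8.28 and 33.4 CPM in Brg1-cKO (log2 fold change 3.35, SE 1.02, adjusted p = 0.213 by edgeR). All 3 lay above both controls. Neo1, which also binds repulsive guidance molecules, overlapped, at 249 and 231 against 282 and 225 CPM.

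Dcc and Unc5a were scarce. Dcc had 91 and 137 counts in control and 42 and 7 in Brg1-cKO. Scaled to library size, it was at 2.53 and 3.54 CPM against 2.92 and 0.65 CPM, so the groups overlapped. Unc5a had 291 and 217 counts against 0 and 13, or 8.10 and 5.60 CPM against 0 and 1.21 CPM. In bulk counts of this kind a few reads decide such values.

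**Figure D3:**
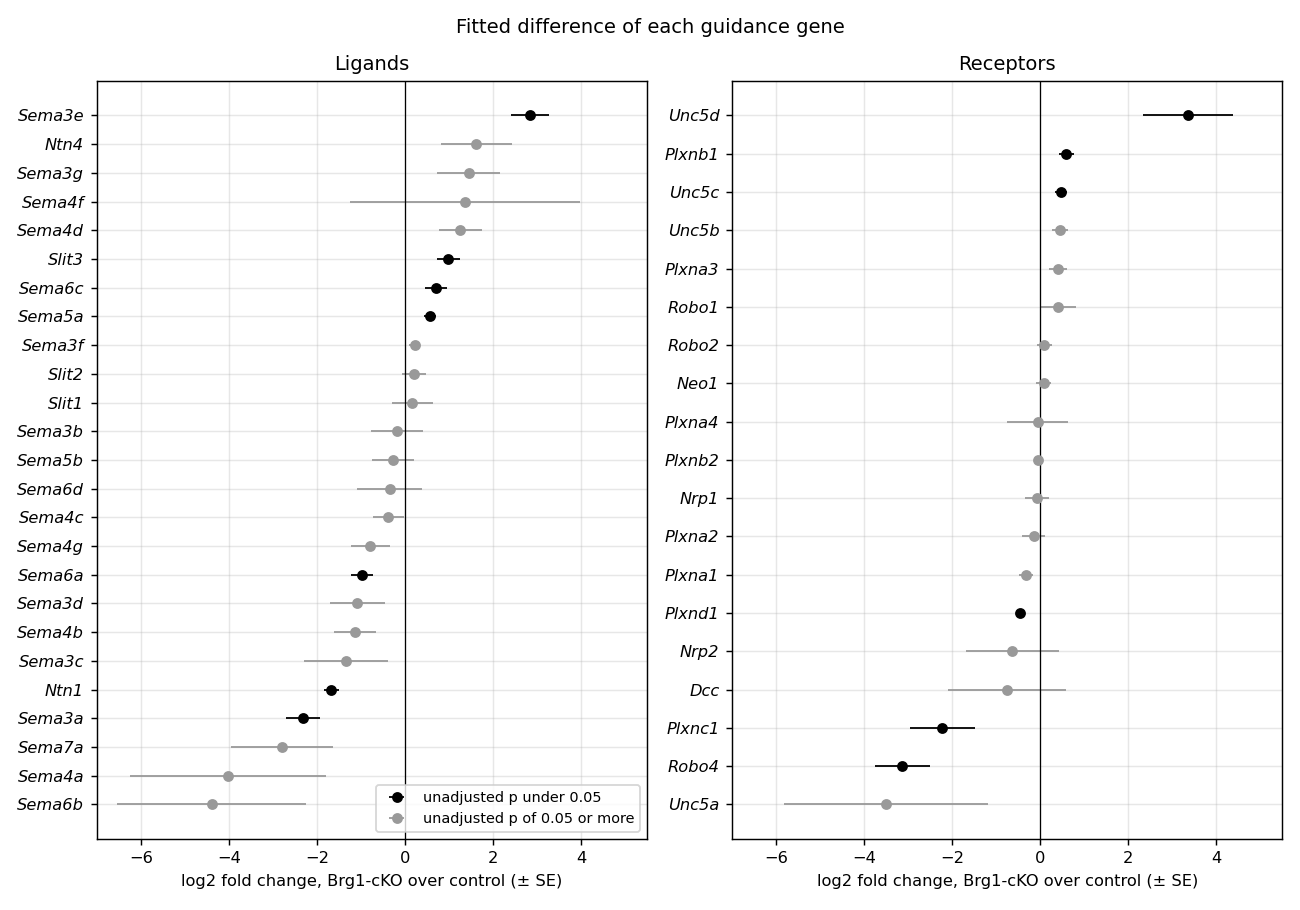
Fitted log2 fold change of Brg1-cKO over control for each guidance gene with its standard error, sorted within ligands (left) and receptors (right); black marks an unadjusted p under 0.05 by edgeR, grey the others. Sema3e and Unc5d are the highest of the black points and Robo4 and Sema3a the lowest, and 0 genes passed after adjustment.

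The Brg1-cKO libraries put 11 of the 44 guidance genes on opposite sides of the control mean. These were the ligands Sema4f, Sema6d, Slit1 and Slit2 and the receptors Plxna2, Plxna4, Nrp1, Nrp2, Robo1, Robo2 and Neo1. Of 35 guidance genes at 10 CPM or more in Brg1-cKO, 12 (34.3%) differed over 2-fold between these libraries, against 36.8% of the 10420 genes at that level. The gap was 8.66-fold for Nrp2, 6.73-fold for Sema3c, 4.05-fold for Sema6d and 4.03-fold for Unc5d. It was 1.01-fold for Sema5a, 1.03-fold for Ntn1 and Sema3a and 1.10-fold for Sema3e.

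**Figure D4:**
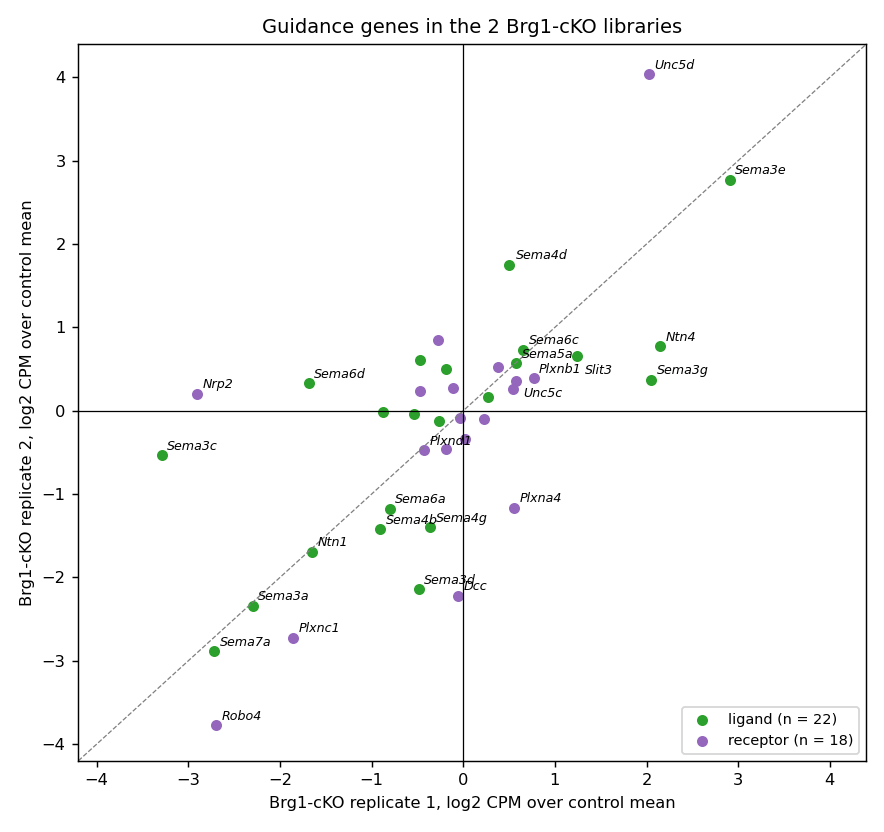
Log2 CPM over the control mean in Brg1-cKO replicate 1 (x axis) and replicate 2 (y axis) for the 40 guidance genes with counts in both, 22 ligands in green and 18 receptors in purple; the dashed line marks equal values. Sema3e, Ntn1, Sema3a and Sema7a lie near the line, while Nrp2, Sema3c, Sema6d and Plxna4 lie far from it.

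Markers of the other cell types a kidney sort could hold differed as well. Of all genes tested, 47.0% were above 0 in log2 fold change. All 17 podocyte markers were above 0, with summed levels of 1572 to 1583 CPM in control and 4191 to 4312 CPM in Brg1-cKO. Tcf21 is on both the podocyte and the stromal list. Early nephron markers were above 0 in 11 of 15, at 1669 to 1674 against 2682 to 2834 CPM. Nephron progenitor markers were above 0 in 11 of 16, at 2714 to 2730 against 3303 to 3616 CPM. Ureteric bud markers were below 0 in 13 of 16 tested, at 502 to 504 against 247 to 386 CPM, with Calb1, Wnt9b and Wnt7b at 0 counts in both Brg1-cKO libraries. Immune markers were below 0 in 13 of 14, at 241 to 244 against 103 to 121 CPM, with C1qa at 0 in both. The part of these cell types in the guidance gene differences was not tested.

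Partners and effectors of these receptors were read from lists of the wider pathway. The partners included further ligands and co-receptors, and also the plexin Plxnb3 and the Robo Robo3, which the family sums above leave out. Of 29 tested partners, 0 passed the adjusted threshold in edgeR, with a median log2 fold change of 0.12. At an unadjusted p under 0.05 by edgeR, 4 stood higher and 7 lower. Over all genes tested the shares were 5.44% higher and 12.9% lower. Of the 7 lower ones, 4 were at 0 counts in both Brg1-cKO libraries and under 10 CPM in control, namely Plxnb3, Robo3, Lrrc4c and Islr2, which were singled out after their values were seen. Dag1, which encodes dystroglycan, a binding partner of Slits, was at 334 and 336 CPM in control and at 505 and 596 CPM in Brg1-cKO (log2 fold change 0.72, SE 0.12). Ptk7, a receptor of planar polarity that can join plexins, was at 491 and 493 against 721 and 653 CPM. Ntng2 and Cspg4 were the other 2 higher partners, with log2 fold changes of 1.38 (SE 0.43) and 0.58 (SE 0.20).

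Among the lower partners, Rgmb, a repulsive guidance molecule that binds neogenin, was at 27.1 and 27.8 CPM in control and at 3.69 and 6.32 CPM in Brg1-cKO (log2 fold change -2.45, SE 0.59). Flrt2, a membrane ligand of Unc5 receptors, was at 104 and 105 against 51.8 and 70.0 CPM (log2 fold change -0.78, SE 0.24). Mcam, a cell adhesion molecule of vessels, had a log2 fold change of -1.38 (SE 0.45).

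Of 51 tested effectors inside the cell, 0 passed the adjusted threshold in edgeR, and 4 stood higher and 4 lower at an unadjusted p under 0.05, with a median log2 fold change of -0.01. Over all genes tested the shares were 5.44% higher and 12.9% lower. Among genes at 10 CPM or more in either group, where all effectors at this p were, the shares were 7.66% higher and 5.22% lower. The effector counts are thus below the background only for lower genes, and only over all genes tested. The higher ones included the MICAL enzymes Mical3 and Mical1, which oxidise actin downstream of plexins. The listed Mical2 was not among them. Mical3 was at 104 and 97.8 CPM in control and at 207 and 209.9 CPM in Brg1-cKO (log2 fold change 1.05, SE 0.14), and Mical1 at 37.6 and 41.2 against 76.1 and 77.2 CPM (0.96, SE 0.22). The kinase Abl2 and the Robo effector Srgap1 had log2 fold changes of 0.59 (SE 0.18) and 0.69 (SE 0.25). The lower ones were Rnd3, Cdc42 and Cfl1, which act on the actin skeleton, and the plexin-linked kinase Fes. Their log2 fold changes were -0.88 (SE 0.23) for Rnd3, -0.73 (SE 0.22) for Cdc42 and -0.38 (SE 0.12) for Cfl1. Fes had 716 and 736 counts in control and 1 and 11 in Brg1-cKO.

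Exons of 9 of the 44 guidance genes overlap another annotated gene. Plxna1, Plxna4, Plxnb1, Unc5a, Unc5c and Sema4c overlap an antisense gene, and Nrp1, Sema4a and Plxnc1 a gene on their own strand. Without the strand setting of the counting, reads from such shared stretches cannot be assigned with certainty.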

How the data were processed

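The 45 genes and every list used here were chosen with earlier results of these data known. The authors' deposited files hold raw counts of reads per gene, 1 file per library. TopHat, DESeq2 and the build mm10 are named in the submitters' processing notes. The sources used here name no counting tool, strand setting or annotation. The lines that sum reads not counted to a gene, unaligned reads included (31.8% to 72.1% of all reads), stayed out of library sizes and tests.

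Identifiers were paired with symbols and with GENCODE M21 positions and exon lengths. The counts were fitted with edgeR 4.0.16 (R 4.3.3) with group as the only term, TMM scaling, the default expression filter with a minimum count of 10 and robust quasi-likelihood F tests. Adjusted p-values are Benjamini-Hochberg values over all 18172 genes tested, with a threshold of 0.05. The SE was taken as the absolute log2 fold change over the square root of F. CPM uses TMM-scaled library sizes, and levels of different genes are compared only as CPM per kb of the union of exons. A count of 0 allows up to 3 counts, 0.0774 to 0.279 CPM depending on the library, which covers counting error only. Members at 10 CPM or more in either group, or with an unadjusted p under 0.05, were given by library. Partner and effector genes were named if they had an unadjusted p under 0.05, at least 10 CPM in either group and no overlap between groups, at most 8 per direction and list. The functions were tested on simulated counts with the same spread in every library. That test does not cover the wider spread between the Brg1-cKO libraries. Alternatives used DESeq2 1.42.0, limma-voom (limma 3.58.1), other scalings and filters, a replicate block and each library left out. The replicate numbers showed no sign of pairing the libraries (r = -0.02 between deviations of same-numbered libraries from their group means, across 18172 genes, which are not independent). This cannot exclude pairing, as the wide spread between the Brg1-cKO libraries could hide a smaller shared effect. The neural markers are not reported here.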

Additional observations from a re-analysis of the deposited data

Results flagged for a closer look

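Reads outside the counted genes were not used in the comparison, and they were more frequent in Brg1-cKO than in either control. As a share of uniquely aligned reads they came to 53.4% ± 5.47 in Brg1-cKO (SD, n = 2) and 15.9% ± 0.775 in control (SD, n = 2). Whether any of them lie in introns of guidance genes was not tested.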

How the results depend on the processing

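With edgeR, 0 guidance genes passed the adjusted threshold under the other scalings, the other filters, without robust dispersions or without either control library. DESeq2 called 13 guidance genes, 12 partners and effectors and 2038 genes in all, and limma-voom called 0, 1 and 327. The replicate numbers showed no sign of pairing the libraries (r = -0.02), which does not exclude it. With a replicate block 156 genes passed, 1 of them a guidance gene (Ntn1, adjusted p = 0.00929 by edgeR). Under that block 4 guidance genes in place of 7 stood higher at an unadjusted p under 0.05. Leaving out 1 library at a time gave 16 to 13262 genes, 0 to 38 guidance genes and 0 to 60 partners and effectors past the adjusted threshold. At the unadjusted p it gave 0 to 17 guidance genes higher and 1 to 25 lower. The high counts came without a Brg1-cKO library (33 guidance genes without replicate 1, 38 without replicate 2), where the lone library is assumed to vary like the controls. The low counts came without a control library. Over all genes, the split at an unadjusted p under 0.05 was 988 higher and 2340 lower, but 827 and 595 with a filter of 10 CPM in 2 libraries, 2487 and 1860 with DESeq2 and 611 and 522 with replicate as a block.

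The median log2 fold change of the receptors was -0.00599 with DESeq2, -0.00697 with RLE scaling, -0.0309 with the 10 CPM filter, -0.0948 with no filter, -0.111 with total counts, -0.133 by limma-voom and -0.114 with replicate as a block, and -0.129 to -0.0755 leaving out 1 library at a time. The median of the ligands ran from -0.504 to -0.0407 over the same libraries left out, and was -0.441 with replicate as a block, -0.501 by limma-voom and -0.165 with the 10 CPM filter. With the longest transcript as gene length, ligands gave 40.2% of the summed level in control.

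Directions turned in the genes whose Brg1-cKO libraries disagreed. Sema4f was at -1.72 under the block and at -1.41 by limma-voom, and Slit1 at -0.0065 with limma-voom. Leaving out 1 library at a time, the log2 fold change ran from -9.13 to 2.33 for Sema4f, from -1.71 to 0.30 for Sema6d, from -1.19 to 0.54 for Plxna4, from -0.49 to 0.21 for Nrp1 and from -2.93 to 0.18 for Nrp2. It ran from -0.49 to 0.58 for Slit1, from -0.21 to 0.48 for Slit2, from -0.30 to 0.83 for Robo1, from -0.13 to 0.25 for Robo2 and from -0.12 to 0.21 for Neo1. In each of these genes the first and second Brg1-cKO library lie on opposite sides of the control mean, and for other guidance genes no alternative turned the direction. A count of 0 allows up to 0.209 CPM in the first Brg1-cKO library, where Sema4a, Sema4f and Unc5a were at 0, and up to 0.279 CPM in the second, where Sema6b was.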
